A study of Mus musculus with 26 samples.

Results

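The DNA replication and S phase genes were a list of 40 mouse genes that copy the genome or prepare a cell to do so. They were matched by symbol to the Ensembl identifiers of 2 count tables, and 40 of 40 were found among 55416 listed genes. The study measured polyadenylated RNA of C57BL/6 mice that had received B16F10 cells, a mouse melanoma line, into a vein and carried lung metastases. Whole lung was sequenced from propranolol-treated mice (5 libraries) and untreated mice (5 libraries). Material labelled lung monocytes, isolated by flow sorting, gave 4 libraries from propranolol-treated and 4 from untreated mice. Material labelled lung CD4 T cells, isolated with magnetic beads, likewise gave 4 and 4. Propranolol blocks β-adrenoceptors, and its dose and duration are not given in the sources used here. The design text gives the melanoma for all mice, so there was no group without tumour, although the labels of the CD4 libraries do not name it.

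Before a cell divides, the origin recognition complex marks start sites on DNA, and Cdc6 and Cdt1 load the ring-shaped MCM helicase there. Cdc45 and the GINS complex then join the ring, polymerases and primase extend new strands, and the PCNA clamp holds the polymerases in place. Many of these genes are transcribed together at the entry into S phase under E2F transcription factors, so their RNA is widely read as a sign of dividing cells. In a lung with metastases the dividing cells can be tumour cells, immune cells or blood cell precursors. In bulk RNA, fewer dividing cells and less of these RNAs per cell cannot be told apart.

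Depth, as the sum of counts in a library, was 29650148 to 43447855 in propranolol lung and 33232082 to 47618634 in untreated lung. They ran from 36277687 to 46407803 and from 36371431 to 48306925 in propranolol and untreated libraries labelled monocytes, and from 27742422 to 42484125 and from 17625672 to 35600275 in propranolol and untreated libraries labelled CD4 T cells. No label states whether each library was a mouse of its own, so p-values reflect the spread among the libraries and nothing wider. Levels are CPM, counts per 1e+06 counts of the library, scaled by TMM within each table, and log2 changes with standard errors (SE) come from edgeR's quasi-likelihood test. A gene was called at a Benjamini-Hochberg adjusted p under 0.05 over all tested genes. All 40 members passed the filter on low counts in each of the 6 comparisons made. Fen1 had the lowest counts of the members, 44 to 379 per library, and its level is uncertain, because how reads shared with other genes were counted is not stated.

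The libraries labelled monocytes held melanoma, endothelial and alveolar RNA as well. The summed level of 15 melanocyte markers was 5561 to 8382 CPM in propranolol and 4618 to 5745 CPM in untreated libraries labelled monocytes. The 8 monocyte markers summed to 5145 to 6591 and 4380 to 5974 CPM there. The 10 endothelial markers summed to 5122 to 5388 CPM in propranolol and 6919 to 7340 CPM in untreated libraries labelled monocytes. For the 8 alveolar type 2 markers the sums there were 4446 to 4706 and 4934 to 5006 CPM. In the libraries labelled CD4 T cells, Tyrp1, a melanin synthesis enzyme, had 0 counts in all 8, which allows at most 0.0706 to 0.170 CPM, and 7 of the 15 melanocyte markers were at 0. Those libraries also held plasma cell and erythroid RNA. The 8 plasma cell markers, Igha and Jchain foremost, summed to 5760 to 10624 CPM in propranolol and 7941 to 8428 CPM in untreated libraries labelled CD4 T cells, more than the 10 T cell markers at 4007 to 4460.0 and 2824 to 2948 CPM. The summed level of 10 erythroid markers, a list added after its values were seen, was 323 to 986 CPM in propranolol and 1083 to 1125 CPM in untreated libraries labelled CD4 T cells, against 5.55 to 9.27 CPM in propranolol lung and 3.67 to 5.94 CPM in untreated lung. The members are therefore described for libraries labelled monocytes and libraries labelled CD4 T cells, not for pure cell types.

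The promoters of some members carry an E2F motif. RefSeq promoter windows on GRCm38.p6, from 250 bases before to 50 bases after the first base of the gene, were found for 32 of the 40 members. They were searched on both strands for TTTCCCGC and TTTGGCGC, which are forms of the E2F motif, and no match overlapped another. In the first window of each gene, 10 of 32 members (31.3%) held at least 1 match, against 441 of 27025 genes (1.63%) in the whole table. Of 22 mitosis genes with a window, 0 held a match. CCAAT was found on either strand in 62.5% of member windows, in 86.4% of mitosis windows and in 37.9% of all windows. A match describes letters and does not show that a factor binds. The members with a match all fell in propranolol lung, but so did the 22 members with a window and no match, and every mitosis gene. Whether a match goes with the change was not tested. The sequences here are shown because they carry the motif, with the match in capitals and each read 5′ to 3′ on the strand of the gene. The first is the whole stretch of 250 bases before the start of Mcm6, the only member with 2 matches upstream of its start, and the others are 30-base stretches around a match.
Mcm6, chr1:128359706-128359955, minus strand: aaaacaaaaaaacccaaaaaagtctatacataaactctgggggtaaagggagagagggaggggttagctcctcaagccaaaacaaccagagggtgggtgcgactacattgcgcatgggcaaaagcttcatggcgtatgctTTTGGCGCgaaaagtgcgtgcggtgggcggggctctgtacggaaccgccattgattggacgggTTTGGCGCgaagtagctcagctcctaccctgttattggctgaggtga
Mcm3, chr1:20820263-20820292, minus strand: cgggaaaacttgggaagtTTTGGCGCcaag
Mcm5, chr8:75109349-75109378, plus strand: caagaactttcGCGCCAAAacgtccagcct
Mcm7, chr5:138172030-138172059, minus strand: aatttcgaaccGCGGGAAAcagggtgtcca
Cdc6, chr11:98908002-98908031, plus strand: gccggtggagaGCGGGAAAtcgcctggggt
Cdt1, chr8:122568035-122568064, plus strand: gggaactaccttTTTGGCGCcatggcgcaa
Gins3, chr8:95633507-95633536, plus strand: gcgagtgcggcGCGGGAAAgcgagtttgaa
Pola1, chrX:93632275-93632304, minus strand: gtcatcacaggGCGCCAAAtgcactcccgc
Pold1, chr7:44548766-44548795, minus strand: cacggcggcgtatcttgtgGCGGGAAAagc
Rfc3, chr5:151651190-151651219, minus strand: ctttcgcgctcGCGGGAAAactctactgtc

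Whole lungs of propranolol-treated mice had less RNA of every member than lungs of untreated mice. All 40 members fell, with a median log2 change of −1.19 and a range from −1.74 (Rrm2) to −0.21 (Pola2), and 30 of them changed by more than 1 log2 unit. Of all 18639 genes tested in lung 35.3% were lower and 70.8% were called in either direction, and the median change of all tested genes was 0.03. In 37 members the lowest untreated lung lay above the highest propranolol lung, against 31.3% of all tested genes. The exceptions, whose groups overlapped, were Orc1, Pola2 and Pole. The summed level of the 40 members was 1553, 978, 767, 652 and 1874 CPM in propranolol lungs 1 to 5, against 3253, 2916, 2298, 2937 and 2941 CPM in untreated lungs 1 to 5. The lowest untreated lung stood above the highest propranolol lung, and the propranolol lungs differed much more among themselves than the untreated ones.

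Among the origin licensing genes, Orc6, a subunit of the origin recognition complex, stood at 18.2, 12.7, 12.0, 11.0 and 21.8 CPM in propranolol lungs, against 32.3, 27.8, 23.1, 26.9 and 27.1 CPM in untreated lungs. The groups did not overlap, and the log2 change was −0.81 ± 0.17 (SE, adjusted p = 0.00171). Cdt1, an MCM loader, stood at 37.5, 20.9, 14.8, 12.6 and 45.4 CPM in propranolol lungs, against 71.4, 69.6, 47.0, 58.3 and 55.3 CPM in untreated lungs, a change of −1.16 ± 0.31. Propranolol lungs 1 and 5 came closest to the untreated ones. Cdc6, the other loader, fell by 1.50 ± 0.36 log2, Mcm10, which helps to start the helicase, fell by 1.44 ± 0.37, and Orc1, the largest origin subunit, fell by 1.01 ± 0.34 (SE, adjusted p = 0.00346, 0.00502 and 0.0204).

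All 6 subunits of the MCM ring fell, from Mcm4 to Mcm2. Mcm4 stood at 52.5, 42.4, 35.2, 32.7 and 62.2 CPM in propranolol lungs, against 98.5, 80.7, 71.3, 97.4 and 94.2 CPM in untreated lungs, with a log2 change of −0.92 ± 0.16 (SE, adjusted p = 0.000542). Mcm2 averaged 113 ± 73.7 CPM in propranolol lungs and 330 ± 42.5 CPM in untreated lungs (SD, n = 5 each), a change of −1.51 ± 0.38 log2. The other 4 subunits lay between these. The helicase partners Cdc45 and Gins1 to Gins4 also fell, with Gins2 at −1.45 ± 0.26 and Gins4 at −0.82 ± 0.11 log2 (SE). Gins4 had the smallest p of its role, standing at 26.4, 22.0, 17.8, 17.5 and 24.8 CPM in propranolol lungs, against 42.4, 39.5, 35.0, 40.2 and 42.2 CPM in untreated lungs (adjusted p = 0.000155). Its groups lay far apart, and its propranolol lungs spread less than those of most members.

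Of the polymerase and primase genes, Pola2 and Pold1 changed least. Pold1, the catalytic subunit of polymerase delta, stood at 37.1, 32.5, 26.7, 28.9 and 44.8 CPM in propranolol lungs, against 59.1, 61.2, 47.6, 58.8 and 54.8 CPM in untreated lungs. This was a log2 change of −0.67 ± 0.12 (SE, adjusted p = 0.000683). Pola2, an accessory subunit of polymerase alpha, stood at 29.2, 24.1, 22.7, 23.0 and 29.7 CPM in propranolol lungs, against 30.9, 30.7, 28.2, 32.0 and 32.8 CPM in untreated lungs. Its groups overlapped, and its change of −0.21 ± 0.08 was the smallest of the 40 (adjusted p = 0.0430). The catalytic subunits Pola1 and Pole and the primase subunits Prim1 and Prim2 changed by −1.16, −1.07, −1.10 and −1.24 log2.

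The clamp gene Pcna stood at 98.2, 62.7, 55.3, 48.2 and 114 CPM in propranolol lungs, against 194, 175, 147, 172 and 175 CPM in untreated lungs, a log2 change of −1.14 ± 0.20 (SE, adjusted p = 0.000610). Rpa1, the large subunit of the protein that coats single-stranded DNA, stood at 128, 88.0, 69.5, 64.4 and 144 CPM in propranolol lungs, against 269, 235, 189.7, 251 and 241 CPM in untreated lungs. Its change was −1.22 ± 0.20 log2. The other coat subunit Rpa2 and the clamp loader subunits Rfc2, Rfc3, Rfc4 and Rfc5 changed by −0.81, −0.76, −1.15, −1.37 and −1.10 log2. Fen1, the nuclease that trims Okazaki fragments, stood at 2.52, 1.76, 1.26, 0.834 and 2.33 CPM in propranolol lungs, against 5.60, 5.43, 4.44, 5.45 and 4.88 CPM in untreated lungs. It changed by −1.53 ± 0.25 log2, and Lig1, the ligase that joins the fragments, by −1.36 ± 0.23 (SE, adjusted p = 0.000409 and 0.000442).

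The largest change was in a gene of nucleotide supply. Rrm2, the regulated subunit of ribonucleotide reductase, stood at 100.4, 51.0, 33.9, 18.3 and 133 CPM in propranolol lungs, against 271, 223, 174, 244 and 235 CPM in untreated lungs. The log2 change was −1.74 ± 0.43 (SE, adjusted p = 0.00382). Propranolol lung 4 stood far below the others. The partner subunit Rrm1 fell by 1.42 ± 0.25 log2, with 79.6, 50.8, 38.7, 33.3 and 93.1 CPM in propranolol lungs against 189, 153, 122, 177 and 171 CPM in untreated lungs. Tyms, which makes thymidylate, fell by 1.49 ± 0.28, and Tk1, which salvages thymidine, fell by 1.14 ± 0.25. Chaf1a, a subunit of the assembly factor that puts histones on new DNA, stood at 28.7, 14.6, 11.7, 10.3 and 34.6 CPM in propranolol lungs, against 57.6, 50.9, 42.0, 52.2 and 56.1 CPM in untreated lungs (−1.34 ± 0.30 log2). Its partner Chaf1b changed by −1.37 and Uhrf1, which guides maintenance of DNA methylation, by −1.57 log2. Ccne1, the cyclin that drives entry into S phase, stood at 10.3, 6.00, 3.40, 3.32 and 13.9 CPM in propranolol lungs, against 25.8, 20.2, 16.7, 31.4 and 26.8 CPM in untreated lungs (−1.68 ± 0.37 log2), and Ccne2 changed by −0.97 ± 0.25 (SE). Of these, the plot of levels by library shows Rrm1, Chaf1a and Ccne1, and Rrm2 is not in it.

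**Figure D1:**
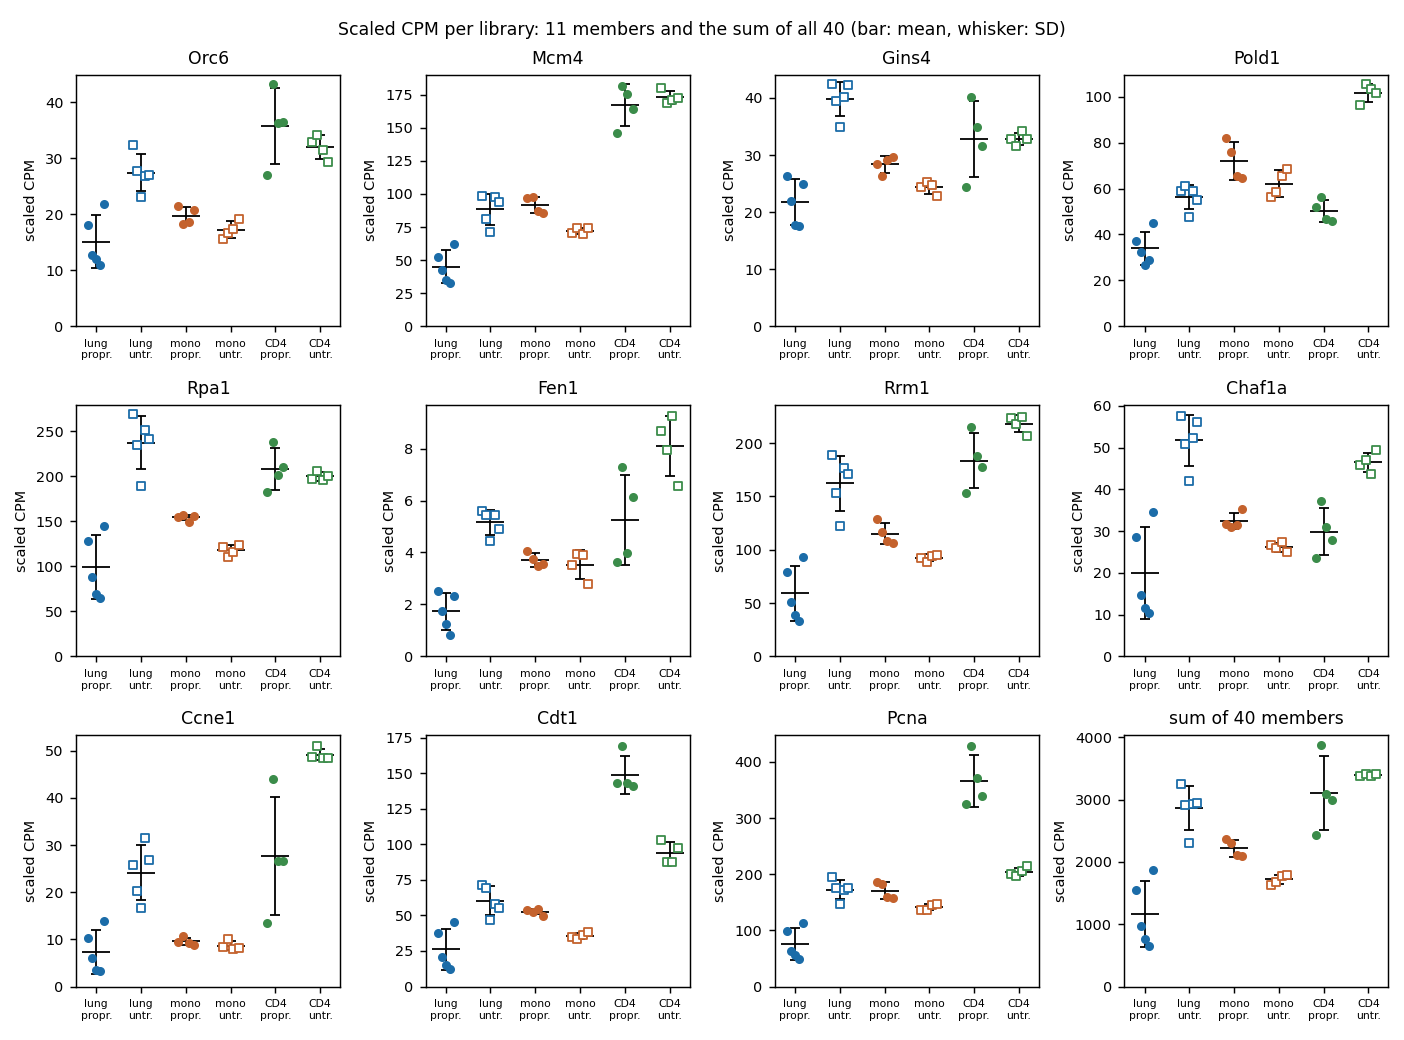
Scaled CPM of 11 members and of the sum of all 40 in every library, by group, with filled circles for propranolol, open squares for untreated, a horizontal bar for the mean and whiskers for the SD. In lung every propranolol library lies below every untreated one for the 11 members and for the sum (652 to 1874 against 2298 to 3253), whereas Pcna and Cdt1 are higher in all 4 propranolol than in all 4 untreated libraries labelled monocytes and labelled CD4 T cells.

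The fall was graded among the propranolol lungs, in the same order for most members. Propranolol lung 4 had the lowest level of its group in 35 members and propranolol lung 5 the highest in 38, while untreated lung 3 was the lowest of its group in all 40. The median coefficient of variation of the members was 45.4% among propranolol lungs and 12.5% among untreated lungs. The 15 melanocyte markers followed the same order, with summed levels of 7306, 3550.3, 1828, 1078 and 8317 CPM in propranolol lungs 1 to 5, against 22429, 18837, 14751, 20060.0 and 18486 CPM in untreated lungs 1 to 5. Of these markers 14 were lower and 1 (Kit) was higher with propranolol, with a median log2 change of −2.04. The members fell less than the markers. Per 100 CPM of melanocyte markers there were 21.3, 27.5, 41.9, 60.5 and 22.5 CPM of members in propranolol lungs 1 to 5, against 14.5 to 15.9 CPM in the untreated lungs. With the melanocyte marker level added to the fit, 34 members kept a log2 change below 0 and 1 was called, Gins4 at −0.44 ± 0.11 (SE, adjusted p = 0.0280). Of all 18639 genes tested, 1295 were higher and 1600 lower in that fit. The median member change was then −0.23. Every propranolol lung had less melanocyte marker RNA than every untreated lung, so in this fit melanoma load and treatment cannot be told apart.

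**Figure D2:**
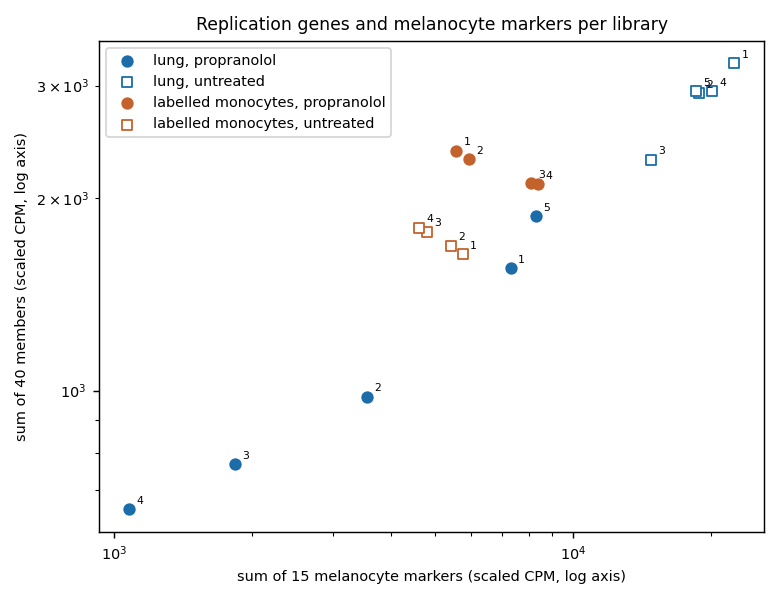
Summed level of the 40 members against the summed level of 15 melanocyte markers in each lung library and each library labelled monocytes, both in scaled CPM on log axes, with replicate numbers beside the points. Propranolol lungs have less of both than untreated lungs, from propranolol lung 4 (1078 CPM of markers and 652 CPM of members) to untreated lung 1 (22429 and 3253 CPM), and propranolol libraries labelled monocytes lie above untreated ones in members, libraries 1 and 2 at marker levels near those of the untreated.

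Markers of most other cells were higher in propranolol lungs. All 10 T cell markers and all 9 B cell markers passed the test there, with median log2 changes of 1.32 and 1.87. Of all genes tested in lung 35.5% were higher. Mean summed levels of endothelial, alveolar type 1 and type 2, smooth muscle and monocyte markers were higher too. These were 3204, 3827, 14818, 636 and 3553 CPM in propranolol lungs, against 1891, 2456, 9257, 387 and 2114 CPM in untreated lungs. Alveolar macrophage markers were not higher, at mean sums of 466 and 473 CPM. The part of these cells in the members' levels was not tested.

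In the libraries labelled monocytes the members moved the other way. Of the 40, 28 rose with propranolol and 0 fell, while 14.3% of the 18236 genes tested there were higher and 30.5% were called in either direction. The changes were small, with a median log2 change of 0.33 against 0.02 for all tested genes, and the largest was 0.54. All 40 had a change above 0, and in 29 the lowest propranolol library lay above the highest untreated one, against 17.1% of all tested genes. The summed level of the members was 2373, 2303, 2111 and 2103 CPM in propranolol libraries 1 to 4, and 1636, 1684, 1772 and 1797 CPM in untreated libraries 1 to 4. The groups did not overlap.

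Cdt1 changed most. It stood at 53.5, 52.5, 54.4 and 49.9 CPM in propranolol libraries labelled monocytes, against 34.8, 33.3, 36.4 and 38.1 CPM in untreated ones, a log2 change of 0.54 ± 0.06 (SE, adjusted p = 5.94e-05). Its partner in loading, Cdc6, was not called (0.39 ± 0.17, adjusted p = 0.115), nor were Orc1 at 0.04 and Orc6 at 0.17 log2, while Mcm10 rose by 0.32. All 6 MCM subunits rose, by 0.29 (Mcm3) to 0.47 (Mcm7) log2. Mcm4 stood at 96.7, 97.4, 87.3 and 85.4 CPM in propranolol libraries, against 70.1, 74.2, 69.6 and 74.3 CPM in untreated ones (0.32 ± 0.06 log2, SE, adjusted p = 0.00230). Of the helicase partners, Gins1 and Gins2 rose by 0.51, Cdc45 by 0.44 and Gins4 by 0.20 log2, and Gins3 at 0.16 was not called.

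Polymerase genes were less uniform. Pole rose by 0.40, Pola1 by 0.27 and Prim2 by 0.25 log2, whereas Pola2 (0.20), Pold1 (0.19) and Prim1 (0.36) were not called. Pold1 stood at 82.1, 76.1, 65.3 and 64.8 CPM in propranolol libraries, against 56.5, 58.4, 65.4 and 68.6 CPM in untreated ones, and the groups overlapped. Rpa1 stood at 155, 157, 149.7 and 156 CPM in propranolol libraries, against 121, 111, 116 and 124 CPM in untreated ones (0.36 ± 0.05 log2, SE, adjusted p = 0.00015). Pcna stood at 185, 182, 159 and 157 CPM in propranolol libraries, against 136, 137, 144 and 147 CPM in untreated ones (0.25 ± 0.07, adjusted p = 0.0183). For Pcna, propranolol libraries 1 and 2 and untreated libraries 3 and 4 stood at the higher ends of their groups. Rpa2 rose by 0.48 and the loader subunits Rfc2, Rfc4 and Rfc5 by 0.29, 0.43 and 0.36 log2, while Rfc3 at 0.15 was not called although its groups did not overlap.

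Lig1 rose by 0.41 log2, and Fen1 at 0.04 ± 0.14 was not called. Among nucleotide genes Rrm2 rose by 0.45, Tk1 by 0.35 and Rrm1 by 0.29 log2, and Tyms at 0.14 was not called. The chromatin genes Uhrf1, Chaf1b and Chaf1a rose by 0.48, 0.44 and 0.28 log2. Neither cyclin E gene was called. Ccne1 stood at 9.50, 10.7, 9.18 and 8.88 CPM in propranolol libraries, against 8.31, 10.1, 8.04 and 8.20 CPM in untreated ones, which overlapped.

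In both groups the counts of libraries 1 and 2, and of libraries 3 and 4, were the closest to each other over all genes. Propranolol libraries 1 and 2 differed from each other by a median of 0.11 log2 in the members and libraries 3 and 4 by 0.06, but libraries 1 and 3 by 0.20. With each close pair summed to 1 sample, a choice made after seeing the data, 4 members were called higher (Cdt1, Rpa1, Mcm2 and Gins2) and the median change was 0.32. Among all tested genes 409 were then higher and 968 lower. Markers of other cells moved with the pairs and with treatment. With the libraries not summed, 14.3% of all tested genes were higher and 16.1% lower with propranolol. The 10 T cell markers summed to 1027, 899, 303 and 228 CPM in propranolol libraries 1 to 4, and to 99.8, 221, 471 and 569 CPM in untreated libraries 1 to 4. The 9 B cell markers summed to 469 to 500.1 CPM in propranolol and 172 to 266 CPM in untreated libraries, and 9 of 9 were higher. Of the melanocyte markers 11 of 15 were higher and 1 was lower, with a median log2 change of 0.48, and all 10 endothelial markers were lower (median −0.47). In propranolol libraries the melanocyte sum was lower in 1 and 2 (5561 and 5928 CPM) than in 3 and 4 (8086 and 8382 CPM), the reverse of the member sums. The part of these cells in the members' rise was not tested.

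The propranolol change of the members differed between the libraries labelled monocytes and whole lung. The difference, tested as an interaction in 1 fit of all 18 libraries, was higher in the libraries labelled monocytes for 38 of 40 members, against 25.2% of 20328 genes tested that were higher and 57.4% that differed either way. Its median was 1.46 log2, against −0.17 for all tested genes. The largest was that of Rrm2, at 2.09 ± 0.48 (SE, adjusted p = 0.00147). The 2 members not called were Orc1 (0.95, adjusted p = 0.0606) and Pola2 (0.29, adjusted p = 0.0576).

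Without treatment, members were lower in the libraries labelled monocytes than in whole lung. Of the 40, 38 were lower and 0 higher in untreated libraries labelled monocytes, against 33.6% of 18259 genes tested that were lower and 65.4% that differed either way, with a median log2 difference of −0.71. This comparison used the same untreated libraries as the ones above. Ccne1 differed most, at 8.66 ± 0.957 CPM in untreated libraries labelled monocytes (SD, n = 4) and 24.2 ± 5.80 CPM in untreated lung (SD, n = 5), a difference of −1.47 ± 0.17 log2 (SE, adjusted p = 1.91e-05). Pold1 and Pola2 were the members not called, at 0.16 and 0.04 log2. All 25 mitosis genes were lower too, with a median of −0.91.

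**Figure D3:**
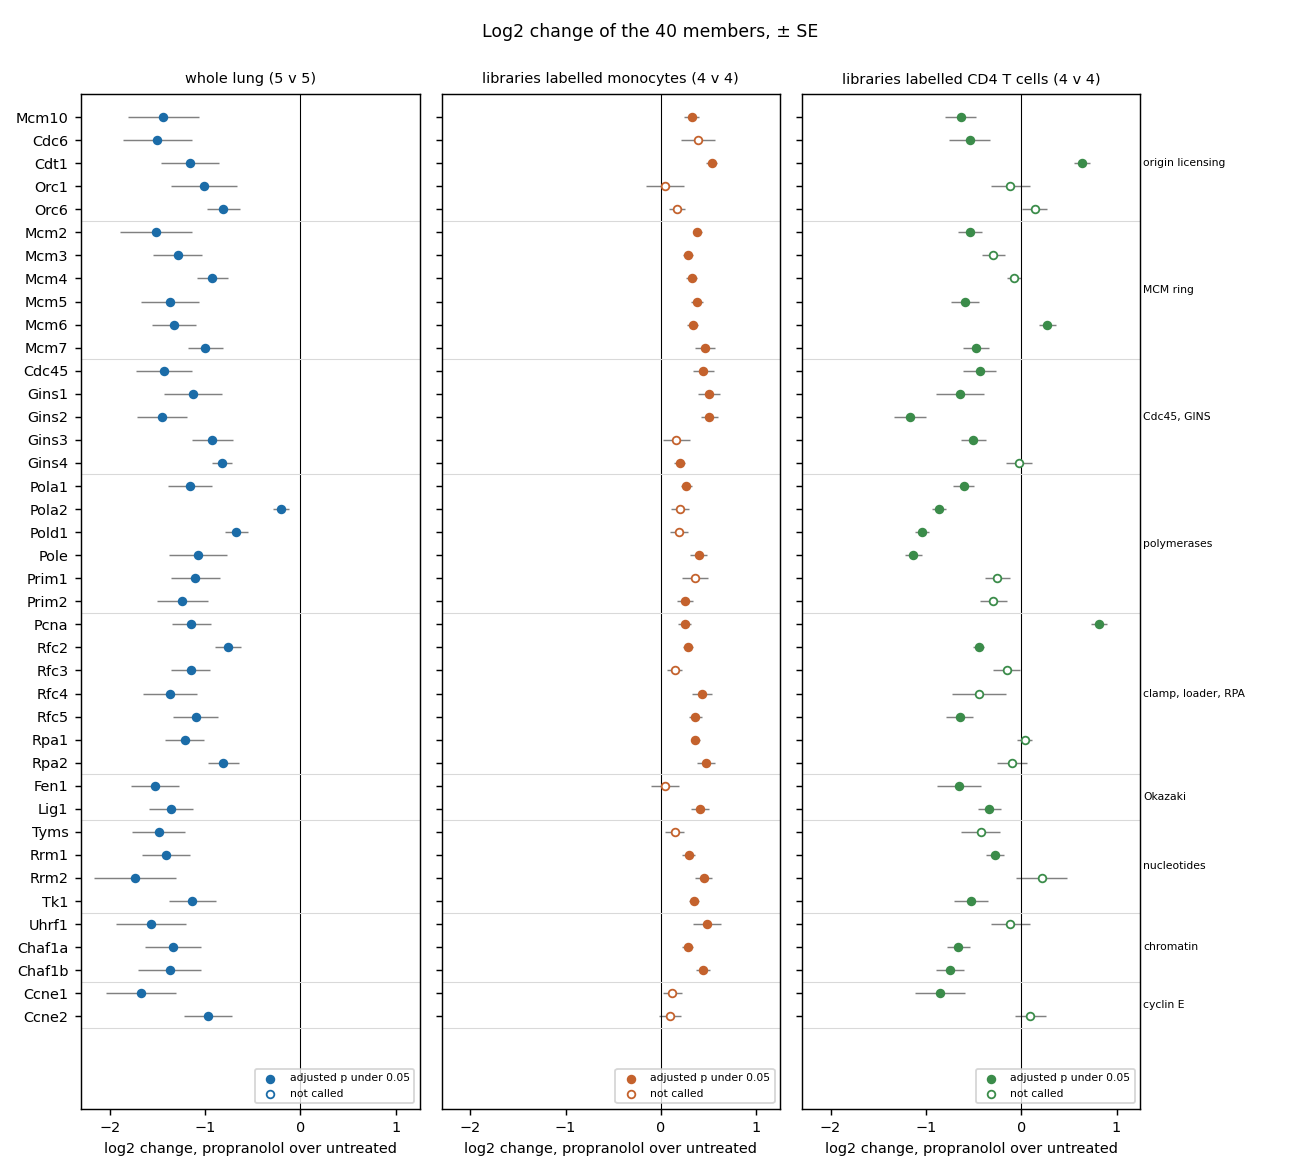
Log2 change with propranolol over untreated, ± SE, of each member by role in whole lung, libraries labelled monocytes and libraries labelled CD4 T cells, with filled points for members called and open points for members not called. The members lie left of 0 in lung (median −1.19) and right of 0 in libraries labelled monocytes (median 0.33), and they split in libraries labelled CD4 T cells, where Pcna, Cdt1 and Mcm6 were higher and Gins2, Pole and Pold1 were the lowest.

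In the libraries labelled CD4 T cells the members did not move together. Of the 40, 3 rose, 22 fell and 15 were not called, while 30.1% of 16550 genes tested were higher and 29.9% lower, together 60%. The median log2 change was −0.44, against −0.04 for all tested genes. The clamp gene Pcna and the loader Cdt1 rose in every library, and the polymerase members Pola1, Pola2, Pold1 and Pole fell in every library. In 3 members the groups did not overlap in the higher direction and in 15 in the lower direction, against 28.6% and 27.5% of all tested genes.

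Pcna stood at 325, 429, 372 and 339 CPM in propranolol libraries labelled CD4 T cells, against 201, 198, 206 and 214 CPM in untreated ones. The log2 change was 0.82 ± 0.09 (SE, adjusted p = 6.97e-06). Cdt1 stood at 143, 169, 143 and 141 CPM in propranolol libraries, against 103, 87.7, 87.5 and 97.6 CPM in untreated ones (0.64 ± 0.08 log2, adjusted p = 4.61e-05). In both genes the groups lay apart, and propranolol library 2 stood highest. Mcm6 stood at 266, 379, 309 and 319.6 CPM in propranolol libraries, against 250.2, 265, 261 and 262 CPM in untreated ones (0.27 ± 0.09, adjusted p = 0.0233). That call rested on a narrow gap, since propranolol library 1 lay just above the highest untreated library. Mcm6 was not called without genes under a mean of 5 CPM (0.19, adjusted p = 0.0711).

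The polymerase subunits among the members fell. Pold1 stood at 52.1, 56.3, 46.6 and 46.1 CPM in propranolol libraries, against 96.4, 106, 104 and 102 CPM in untreated ones (−1.04 ± 0.08 log2, SE, adjusted p = 3.64e-07). Pole stood at 23.7, 29.9, 26.8 and 29.1 CPM in propranolol libraries, against 59.1, 58.9, 58.6 and 59.5 CPM in untreated ones (−1.13 ± 0.09, adjusted p = 4.66e-07). Pola2 stood at 39.4, 45.7, 41.5 and 42.9 CPM in propranolol libraries, against 78.8, 76.7, 72.5 and 75.2 CPM in untreated ones (−0.86 ± 0.07, adjusted p = 9.43e-07). For these 3 genes no propranolol library came near the untreated ones. Pola1 fell by 0.60 log2, and the primase subunits Prim1 (−0.25) and Prim2 (−0.29) were not called.

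Of the MCM ring, Mcm2, Mcm5 and Mcm7 fell by 0.54, 0.59 and 0.48 log2, and Mcm3 (−0.29) and Mcm4 (−0.07) were not called. Mcm4 stood at 146, 182, 176 and 164 CPM in propranolol libraries, against 180.2, 169, 171 and 172 CPM in untreated ones, which overlapped. Gins2 stood at 4.81, 8.48, 7.16 and 6.58 CPM in propranolol libraries, against 15.4, 16.3, 13.1 and 14.7 CPM in untreated ones (−1.16 ± 0.17 log2, SE, adjusted p = 8.75e-05). Gins1, Gins3 and Cdc45 fell by 0.64, 0.50 and 0.44 log2, and Gins4 at −0.02 was not called. In origin licensing, Mcm10 fell by 0.63 and Cdc6 by 0.54 log2, and Orc1 (−0.11) and Orc6 (0.14) were not called. Orc6 stood at 27.0, 43.3, 36.2 and 36.5 CPM in propranolol libraries, against 32.8, 34.2, 31.6 and 29.3 CPM in untreated ones.

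Around the clamp, Rfc5 fell by 0.65 and Rfc2 by 0.45 log2, while Rfc3 (−0.15), Rfc4 (−0.45), Rpa1 (0.04) and Rpa2 (−0.10) were not called. Rpa1 stood at 183, 238, 201 and 211 CPM in propranolol libraries, against 197, 206, 196 and 200.5 CPM in untreated ones. Fen1 fell by 0.65 and Lig1 by 0.34 log2, although Fen1 overlapped between groups, with 3.64, 7.28, 3.98 and 6.12 CPM in propranolol and 8.67, 7.93, 9.25 and 6.55 CPM in untreated libraries. Rrm1 fell by 0.27 and Tk1 by 0.52 log2. Rrm2 stood at 80.7, 273, 181 and 166 CPM in propranolol libraries, against 151, 143, 153 and 149 CPM in untreated ones, and was not called (0.21 ± 0.26), nor was Tyms (−0.43). Propranolol libraries 1 and 2 lay on opposite sides of the untreated group in Rrm2.

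Chaf1b fell by 0.75 and Chaf1a by 0.66 log2, and Uhrf1 at −0.11 was not called. Chaf1a stood at 23.7, 37.1, 31.0 and 27.8 CPM in propranolol libraries, against 45.9, 46.9, 43.7 and 49.4 CPM in untreated ones. Ccne1 stood at 13.5, 44.1, 26.7 and 26.6 CPM in propranolol libraries, against 48.7, 50.9, 48.5 and 48.4 CPM in untreated ones (−0.85 ± 0.26 log2, SE, adjusted p = 0.0140), and Ccne2 at 0.10 was not called.

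The propranolol libraries labelled CD4 T cells differed from one another in nearly all members. Library 2 had the highest level of its group in 39 members and library 1 the lowest in 37. The summed member level was 2437, 3878, 3089.8 and 2999 CPM in propranolol libraries 1 to 4, and 3383, 3413, 3378 and 3406 CPM in untreated libraries 1 to 4. The median coefficient of variation of the members was 21.2% and 3.79% in propranolol and untreated libraries. Without propranolol libraries 1 and 2 together, a choice made after seeing the data, 4 members were higher and 28 lower, with a median of −0.44. Without propranolol library 1 alone 6 members were higher, and without propranolol library 2 alone 29 were lower. Leaving out untreated library 1 alone, 7 members were no longer called. With all libraries 30.1% of all tested genes were higher and 29.9% lower, and the shares without these libraries are not given here. The erythroid markers ran in the same order, at 323, 986, 626 and 607 CPM in propranolol libraries 1 to 4, against 1083 to 1125 CPM in untreated libraries. The plasma cell markers were likewise lowest in propranolol library 1 and highest in library 2, at 5760, 10624, 7820 and 7459 CPM in propranolol libraries 1 to 4, with 1 of 8 markers higher and 2 lower than in untreated libraries. Of the 10 erythroid markers, 6 were lower (among them Klf1 at −1.29 and Car1 at −1.70 log2) and 2 were higher. Markers of other blood cells also differed, with 9 of 9 B cell, 8 of 8 neutrophil and precursor, 6 of 8 monocyte and 7 of 10 T cell markers higher. The part of these cells in the members' changes was not tested.

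**Figure D4:**
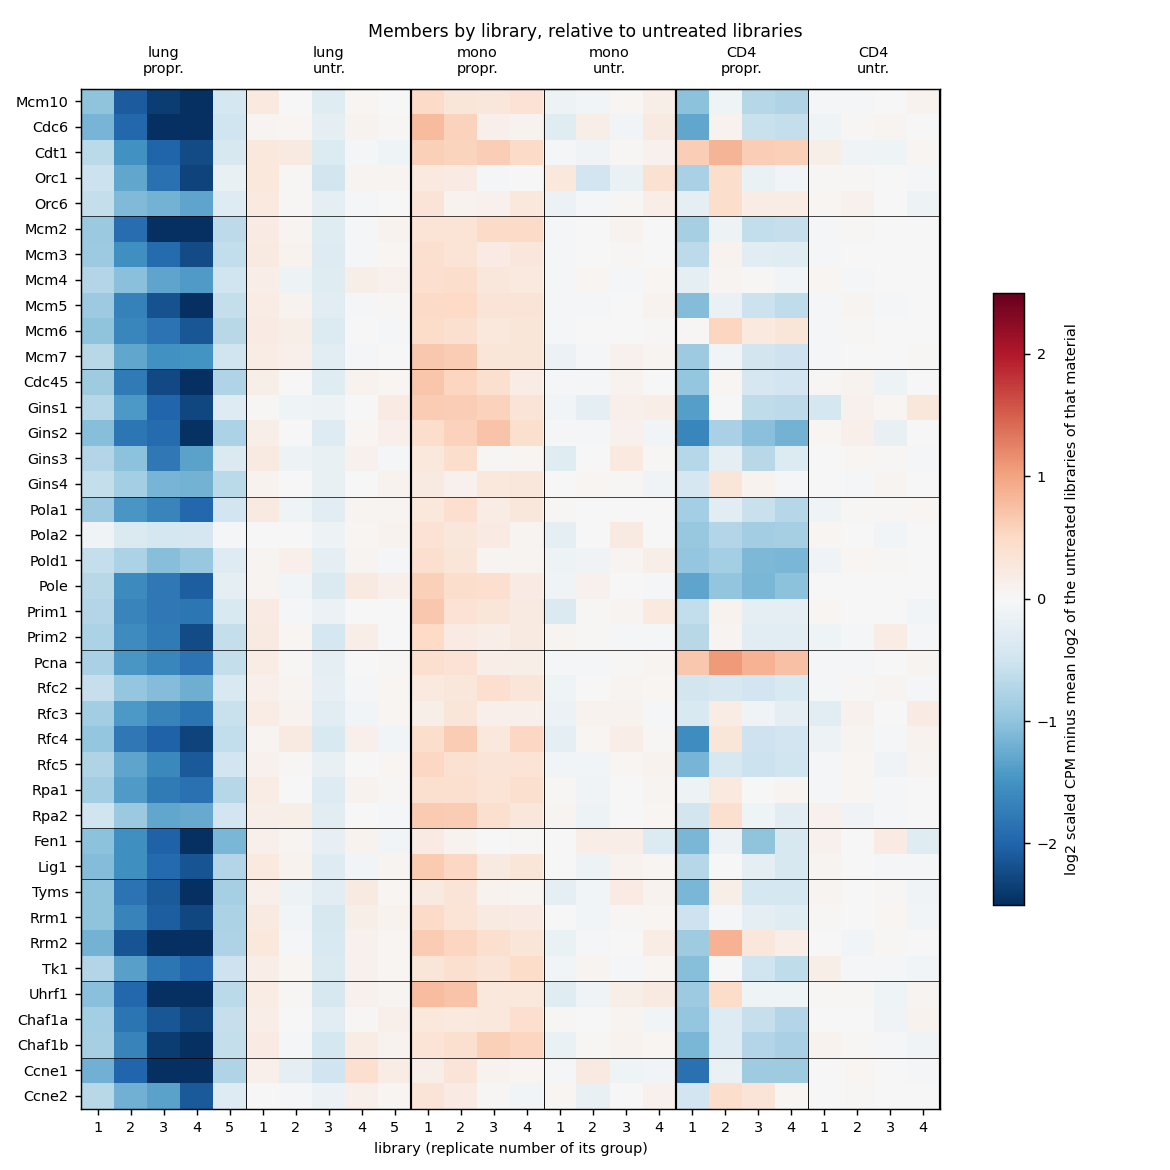
Log2 scaled CPM of each member in each library, minus the mean log2 of the untreated libraries of the same material, with members in rows by role and libraries in columns, propranolol left of untreated. Colours end at the limits of the colour bar, and values beyond them take the end colour. Among lungs, propranolol 3 and 4 are the lowest in every row, propranolol libraries labelled CD4 T cells 1 and 2 differ in most rows, and Pcna and Cdt1 are above 0 in all 4 of those libraries.

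Set against whole lung, the change in libraries labelled CD4 T cells was higher for 17 members and lower for 2, while 24% of 20832 genes tested were higher and 32.2% lower, together 56.2%. The median difference was 0.70 log2, against −0.26 for all tested genes. Pcna differed most, at 1.80 ± 0.22 (SE, adjusted p = 1.68e-06), followed by Rrm2 at 1.79 ± 0.54, Cdt1 at 1.64 ± 0.34 and Mcm6 at 1.44 ± 0.25. The lower ones were Pola2 at −0.83 ± 0.10 (adjusted p = 8.15e-07) and Pold1 at −0.54 ± 0.13 (adjusted p = 0.00211), whose RNA fell more in the libraries labelled CD4 T cells. Both directions of Pola2 and Pold1 turned when lung libraries were scaled on markers of resident lung cells, to 0.06 and 0.35. The count of higher members was 12 without propranolol CD4 library 2 and 28 without propranolol lung 5.

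Per kilobase of exon, Pcna was the most abundant member in each group but untreated lung. It stood at 31.5 CPM per kb in propranolol lung and 72.0 in untreated lung, at 71.2 in propranolol and 58.9 in untreated libraries labelled monocytes, and at 153 in propranolol and 85.3 in untreated libraries labelled CD4 T cells. In untreated lung Rrm2 was first, at 82.8 ± 12.9 CPM per kb (SD, n = 5), and its distance to Pcna lay within that SD. In untreated libraries labelled CD4 T cells the MCM subunits stood at 29.6 (Mcm2) to 55.6 (Mcm6) CPM per kb. Levels of those libraries come from a separately scaled table, so material and table cannot be told apart in such levels.

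Of 40 other genes of replication that are not members, 36 were lower and 1 higher in propranolol lung (median −0.89 log2). In propranolol libraries labelled monocytes 19 were higher and 1 lower (0.27), and in those labelled CD4 T cells 5 were higher and 25 lower (−0.54). Of all tested genes 70.8% were called in either direction in lung, 30.5% in libraries labelled monocytes and 60% in libraries labelled CD4 T cells. In the libraries labelled CD4 T cells, Recql4, a helicase that helps to start replication, changed by −1.85 ± 0.10, Timeless, which steadies the moving fork, by −1.58 ± 0.11 and Dnmt1, the maintenance DNA methyltransferase, by −0.88 ± 0.05 log2. Dbf4, the activator of the Cdc7 kinase that fires origins, stood at 87.5, 98.3, 97.8 and 97.3 CPM in propranolol libraries, against 37.5, 43.9, 43.9 and 38.8 CPM in untreated ones (1.19 ± 0.08 log2, SE, adjusted p = 9.69e-08). In libraries labelled monocytes Dna2, a nuclease of Okazaki fragments, rose by 0.44 log2.

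All 25 mitosis genes were lower in propranolol lung (median −1.59), 14 of 25 were higher and 0 lower in propranolol libraries labelled monocytes (0.33), and 1 was higher and 16 lower in propranolol libraries labelled CD4 T cells (−0.68). Of all tested genes 35.3% were lower in lung, 14.3% higher in libraries labelled monocytes and 29.9% lower in libraries labelled CD4 T cells. The summed members per 100 CPM of mitosis genes were 176 to 282 in propranolol lungs and 157 to 165 in untreated lungs. They were 164 to 182 in propranolol and 166 to 171 in untreated libraries labelled monocytes, and 270.1 to 308 in propranolol and 183 to 194 in untreated libraries labelled CD4 T cells. The groups did not overlap in lung or in the libraries labelled CD4 T cells. Plk1, a kinase of mitotic entry, stood at 8.13, 16.8, 13.0 and 12.8 CPM in propranolol libraries labelled CD4 T cells, against 40.4, 37.4, 40.5 and 40.4 CPM in untreated ones (−1.67 ± 0.18 log2, SE, adjusted p = 7.6e-06).

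Among genes that control entry into S phase, 4 were higher and 16 lower of 21 in propranolol lung, 7 higher and 2 lower in libraries labelled monocytes, and 4 higher and 10 lower in libraries labelled CD4 T cells. The share of all tested genes called in either direction was 70.8% in lung, 30.5% in libraries labelled monocytes and 60% in libraries labelled CD4 T cells, which is near the share of this list in the CD4 libraries. Myc, a growth-promoting transcription factor, stood at 416, 309, 326 and 326 CPM in propranolol libraries labelled CD4 T cells, against 104, 109, 105 and 110.2 CPM in untreated ones (1.67 ± 0.09 log2, SE, adjusted p = 1.8e-08). The kinases Cdk4 and Cdk6, which start the release of E2F factors, changed by −1.02 ± 0.07 and −1.04 ± 0.06 log2 there. In lung Cdk4 changed by −1.08 ± 0.17 and Cdk6 by 0.68 ± 0.11, although the sign of Cdk6 turned when lungs were scaled on resident markers.

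Of the 7 inhibitors of cyclin-dependent kinases, 4 were higher and 2 lower in propranolol libraries labelled CD4 T cells. Of all genes tested there 30.1% were higher and 29.9% lower, together 60%. Cdkn1a, which encodes the kinase inhibitor p21, a protein that also binds PCNA, stood at 137, 122, 131 and 122 CPM in propranolol libraries, against 3.15, 2.69, 2.66 and 2.68 CPM in untreated ones. The log2 change was 5.51 ± 0.09 (SE, adjusted p = 3.93e-12), and the groups lay far apart. Monocyte markers summed to 1018 to 1140 CPM in these propranolol libraries and to 333 to 434 CPM in the untreated ones. The part of other cells in the Cdkn1a change was not tested. Cdkn1c changed by 2.26 ± 0.39 and Cdkn1b by 0.67 ± 0.07 log2. In libraries labelled monocytes Cdkn1a stood at 391, 392, 436 and 437 CPM with propranolol, against 524, 498, 447 and 433 CPM without, a change of −0.23 ± 0.06 (adjusted p = 0.0165) with overlapping groups. In lung 3 inhibitors were higher and 4 lower, with Cdkn2c at −1.17 ± 0.14 and Cdkn2b at 0.91 ± 0.12 log2 (SE). There 70.8% of all tested genes were called in either direction.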

How the data were processed

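The values are raw counts of reads per gene, which the authors deposited in 2 tables, one of lung and monocyte libraries and one of CD4 libraries. Per the submitters' processing notes the tools were STAR 2.7.9, featureCounts and Subread 2.0.3 with GRCm39. Whether counting was stranded was not stated, so members that overlap another gene are uncertain. Of 55416 genes 52083 (94.0%) carry a symbol, and all 26 columns matched a sample.

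Genes were kept by filterByExpr (minimum count 10), scaled by TMM and fitted in edgeR 4.0.16 (R 4.3.3). Its quasi-likelihood F test gave p-values, adjusted by Benjamini-Hochberg over all tested genes, with a threshold of 0.05. Each comparison used its own groups only. Differences between materials were interactions in fits of 4 groups. The fit was tested on simulated data in which a small share of genes changed, in both directions. The largest simulated increases were estimated near their true size at the median, and smaller changes and decreases were not checked for bias. Fewest of the known changes were called in the interaction of the CD4 libraries with lung. A first limit on that share was not met with other random draws and was replaced by a looser one. The simulation did not cover a shift of most genes between groups, so it cannot show how scaling behaved in lung. Levels per kilobase used merged exon lengths of GENCODE M21. No pair of libraries agreed within sampling noise.

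The members, the other gene lists and the marker lists were chosen with earlier results of these data known. Genes with values per library were, for each role, the member with the smallest lung p, plus the members with the smallest p in each direction of the other materials, and Mcm6, Rrm2, Pole, Pola2, Gins2, Dbf4, Plk1, Myc and Cdkn1a were added after their values were seen. Alternatives were DESeq2 1.42.0, its size factors, no filter, a mean of at least 5 CPM, a replicate block, limma 3.58.1, resident-cell scaling and a melanocyte covariate.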

Additional observations from a re-analysis of the deposited data

Results flagged for a closer look

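Of 240 combinations of a member and a group, 10 (4.17%) had 1 library apart from the others of its group, and chance flags about 1 in 20. In scaled CPM these were Ccne1 at 10.1 in untreated monocyte library 2 and at 50.9 in untreated CD4 library 2, Cdc6 at 21.1 and Tk1 at 47.5 in untreated lung 3, and Cdt1 at 169 in propranolol CD4 library 2. The others were Pola1 at 50.9 and Tk1 at 68.5 in untreated CD4 library 1, Rfc3 at 20.6 in propranolol monocyte library 2, Prim2 at 25.7 in propranolol monocyte library 1 and Chaf1a at 35.2 in propranolol monocyte library 4.

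The propranolol change was higher in libraries labelled monocytes than in lung, by the interaction test of edgeR, for 38 members, against 25.2% of 20328 genes tested. In the helicase and its loading the log2 differences were Mcm2 1.80, Mcm3 1.47, Mcm4 1.14, Mcm5 1.65, Mcm6 1.56, Mcm7 1.36, Mcm10 1.66, Cdc6 1.80, Cdt1 1.59, Orc6 0.87, Cdc45 1.77, Gins1 1.53, Gins2 1.86, Gins3 0.98 and Gins4 0.91. For polymerases, clamp and ligation they were Pola1 1.32, Pold1 0.75, Pole 1.37, Prim1 1.35, Prim2 1.39, Pcna 1.29, Rfc2 0.94, Rfc3 1.19, Rfc4 1.70, Rfc5 1.35, Rpa1 1.47, Rpa2 1.17, Fen1 1.46 and Lig1 1.66. For nucleotides, chromatin and cyclin E they were Tyms 1.53, Rrm1 1.60, Rrm2 2.09, Tk1 1.38, Uhrf1 1.95, Chaf1a 1.51, Chaf1b 1.71, Ccne1 1.70 and Ccne2 0.96.

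Between libraries labelled CD4 T cells and lung the difference passed the same test for 19 of the 40 members, against 56.2% of all 20832 genes tested. It was positive for Pcna (1.80), Rrm2 (1.79), Cdt1 (1.64), Mcm6 (1.44), Uhrf1 (1.30), Rpa1 (1.09), Rrm1 (0.98), Ccne2 (0.91), Tyms (0.90), Lig1 (0.86), Rfc3 (0.84), Mcm3 (0.83), Prim2 (0.79), Orc6 (0.78), Mcm4 (0.68), Gins4 (0.63) and Rpa2 (0.54). It was negative for Pola2 (−0.83) and Pold1 (−0.54).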

How the results depend on the processing

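With the melanocyte covariate in lung, 1295 genes were higher and 1600 lower, 1 member was lower and the member median was −0.23, and 6 members turned: Ccne2 0.0098, Cdt1 0.0042, Gins1 0.061, Pola2 0.025, Pole 0.065 and Orc1 0.32. Scaling lung on resident-cell markers moved the median of all genes to −0.74. There 1767 genes were higher and 10903 lower, the member median was −1.90, and Rb1 (−0.31) and Cdk6 (−0.092) turned. Under it the monocyte change exceeded the lung change for 10005 genes and was below it for 1885, with a member median of 2.28. The CD4 change exceeded the lung change for 8441 genes and was below it for 2975, with 35 members higher, 0 lower and a median of 1.55, and Pola2 (0.065), Pold1 (0.35) and Pole (0.57) turned. With close monocyte libraries summed, 409 genes were higher and 968 lower, and 4 members higher. With a mean of at least 5 CPM, which leaves 38 members in the lung and monocyte fits, the CD4 change was below the lung change for 4112 genes, and CD4 Rpa1 turned to −0.042. Without a filter 1 member was lower in that comparison. CD4 Gins4 turned to 0.016 without propranolol libraries 1 and 2. Unscaled CPM gave median member levels of 27.8 and 21.2 in propranolol and untreated monocyte libraries and 63.7 in untreated CD4 libraries, against scaled 30.6, 23.7 and 55.3.

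Leaving out 1 library at a time gave 38 to 40 members lower in lung (median −1.44 to −1.05), 25 to 27 higher in monocyte libraries (0.28 to 0.36), and 2 to 6 higher and 15 to 29 lower in CD4 libraries (−0.60 to −0.27). The interaction held for 38 to 40 members against monocyte libraries (1.37 to 1.77) and 12 to 28 against CD4 libraries (0.52 to 0.95). Signs turned for members near 0: in monocyte libraries Fen1 (−0.059 to 0.10) and Orc1 (−0.10 to 0.18), and in CD4 libraries Rrm2 (−0.079 to 0.45), Ccne2 (−0.019 to 0.25), Gins4 (−0.13 to 0.10), Orc1 (−0.33 to 0.067), Rpa1 (−0.026 to 0.094), Rpa2 (−0.29 to 0.011) and Uhrf1 (−0.34 to 0.079). They also turned for the CD4 minus lung difference of Gins2 (−0.029 to 0.33) and Pole (−0.37 to 0.085), and for Pola2 between untreated monocyte and lung libraries (−0.034 to 0.10). The cause was not tested.

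Whether replicate numbers pair the libraries was not settled. Same-number correlations were −0.09 to 0.49 in lung, −0.42 to −0.21 in monocyte and −0.03 to 0.03 in CD4 libraries. Lung libraries 1 and 3 (0.42 and 0.49) and CD4 library 1 (0.03) correlated best with their own number. Libraries of a group also differed in markers of other cells, so these correlations cannot show whether a pairing exists. A replicate block gave 40 members lower in lung, 21 higher in monocyte libraries (1454 genes higher), and 3 higher and 23 lower in CD4 libraries. No paired analysis was possible because the numbers of different materials name different samples, for untreated monocyte against untreated lung libraries.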
